A study of Mus musculus with 12 samples.

Results

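The 10 genes described here are negative feedback genes and transcriptional readouts of the ERK pathway: the phosphatases Dusp4 and Dusp6, the Sprouty genes Spry1, Spry2 and Spry4, the Sprouty-related genes Spred1, Spred2 and Spred3, and the ETS transcription factors Etv4 and Etv5. They were taken by gene symbol from what is known of the pathway, with earlier results of these data known, and all 10 were among the 21030 genes of the deposited count table. All 10 also passed the filter on low counts, which left 15737 genes to test. ERK is the last kinase of a cascade in which a receptor tyrosine kinase, such as a fibroblast growth factor receptor, switches on RAS, and RAS activates the kinases RAF, MEK and ERK in turn. Active ERK induces genes whose products damp the same cascade, so a rise in their RNA is widely used as a sign of recent signalling. In the embryonic spinal cord the pathway is known for its part in the division and fate of progenitors and in the outgrowth of neurites. Only RNA was measured here, not ERK activity.

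The cultures came from whole spinal cords of wild-type C57BL/6 embryos taken on embryonic day 12, so that each library mixes neurons, progenitors and other cells. They were kept for 48 hours in wells seeded with 500000 cells, on 1 of 4 coats. The coat named Laminin + Myelin held poly-D-lysine (PDL) at 20 μg/ml, laminin at 1 μg/ml and wild-type myelin membranes at 10 μg/ml. The Myelin coat held PDL and the myelin membranes, the Laminin coat held PDL and laminin, and the PDL coat held PDL alone, so PDL was under every culture. PDL is a synthetic polymer that makes cells stick, laminin is a matrix protein that favours neurite growth, and myelin membranes carry proteins known to hold neurites back. Each coat had 3 libraries, numbered 1 to 3. The labels call them biological replicates without saying whether they came from separate litters or days, so the p-values measure the spread between these libraries. In such mixed cultures, fewer cells of a type and less RNA per cell cannot be told apart.

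The libraries held 36061511 to 45024091 counts in genes. Neuron markers were abundant, with 8 genes summing to 8095 to 10430 CPM (the counts of a gene scaled to a common library size) per library, and 8 progenitor markers summed to 468 to 981 CPM. The share of reads outside annotated genes was 11.5 ± 0.47% on Laminin + Myelin, 11.3 ± 0.93% on Myelin, 11.8 ± 2.89% on Laminin and 18.1 ± 1.13% on PDL (SD, n = 3 each), so the PDL libraries stood apart from the rest, and Laminin replicate 1 was the lowest at 8.46%. All 8 microglial markers had a fitted log2 change above 0 with Myelin against PDL, and the list summed to 17.9 to 76.3 CPM on Myelin and 10.8 to 35.1 CPM on PDL. The 7 markers of mature oligodendrocytes summed to 262 to 442 CPM on Laminin + Myelin and 269 to 829 CPM on Myelin, against 58.0 to 84.0 CPM on Laminin and 60.2 to 75.8 CPM on PDL. The labels also speak of wells with the myelin coat and no cells, which are not analysed here. Of the 8 progenitor markers, 8 were above 0 in the averaged myelin effect, with a median log2 change of 0.18, or 0.16 with the libraries compared within a number, where Sox2 was called higher. All 5 tested astrocyte markers were above 0 too with the libraries compared within a number. There S100b and Gfap were called higher for Myelin against PDL, where 4.37% of all genes were. The astrocyte list summed to 762 to 939 CPM on Myelin and 704 to 914 CPM on PDL, which overlapped. Of the 8 neuron markers, 7 were also above 0 for Myelin against PDL, and 6 in the averaged myelin effect. No marker of these 5 lists was at 0 in every library. The part of cell makeup, of RNA in the coat and of the outside reads in any result below was not tested. Fits with the outside share are given for some results. They can hardly separate that share from the PDL coat, since the PDL libraries alone hold the high shares.

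Promoter sequence was matched for 7 of the 10 genes in RefSeq (build GRCm38.p6), from 250 bases before to 50 after each start. The start is the RefSeq one, which can differ from the GENCODE M21 gene start given below. For Spred1 the GENCODE start, 117121374, lies past the end of the window. The windows of Dusp6, Spry2 and Spred1 are shown because these genes are among those called below when libraries are compared within a number. Capitals mark GGAAG, or its reverse complement CTTCC, the core letters bound by ETS factors such as Etv4 and Etv5.
Dusp6, chr10:99262981-99263280, plus strand: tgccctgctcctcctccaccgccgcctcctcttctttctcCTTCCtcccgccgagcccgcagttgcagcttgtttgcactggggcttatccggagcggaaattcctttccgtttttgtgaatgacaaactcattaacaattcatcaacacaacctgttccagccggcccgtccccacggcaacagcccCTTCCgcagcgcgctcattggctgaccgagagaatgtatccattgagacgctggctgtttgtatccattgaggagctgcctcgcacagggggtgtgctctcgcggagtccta
Spry2, chr14:105896770-105897069, minus strand: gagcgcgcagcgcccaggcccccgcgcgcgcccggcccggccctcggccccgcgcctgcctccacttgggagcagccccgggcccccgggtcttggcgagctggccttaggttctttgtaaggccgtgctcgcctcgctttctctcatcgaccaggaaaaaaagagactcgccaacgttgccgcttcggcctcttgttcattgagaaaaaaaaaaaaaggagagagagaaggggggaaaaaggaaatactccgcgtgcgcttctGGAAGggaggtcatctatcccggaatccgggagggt
Spred1, chr2:117120821-117121120, plus strand: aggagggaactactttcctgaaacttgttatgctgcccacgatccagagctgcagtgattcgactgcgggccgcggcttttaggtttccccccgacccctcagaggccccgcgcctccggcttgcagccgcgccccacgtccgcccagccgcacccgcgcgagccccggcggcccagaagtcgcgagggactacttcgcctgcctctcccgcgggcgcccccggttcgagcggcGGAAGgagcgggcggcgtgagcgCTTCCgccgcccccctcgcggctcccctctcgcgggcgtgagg
Searched on both strands, GGAAG was found 2 times in the Dusp6 window, 62 and 210 bases before the start, once in the Spry2 window, 15 bases into the transcript, and 2 times in the Spred1 window, 16 bases before and 8 bases after the start. The same motif stood in 71.4% of the 32851 promoter windows of the reference, so its presence sets no gene apart. The Spred2 window held 5 copies, the second of 2 Etv5 windows 4, and the Spred3 window 1, while the Spry1 window and the first Etv5 window held none. The longer ETS motif CCGGAAG, which stood in 8.86% of all windows, and the AP-1 motif TGANTCA, in 7.81%, were in none of the 8 windows of these genes.

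Per kilobase of exon, which allows levels to be compared between genes, Dusp4 was far above the rest. Its mean over the 12 libraries was 85.2 CPM per kb (range 61.0 to 99.1), at the 97.6th percentile of the 14984 tested genes with a length. Spred1 followed with 15.2 CPM per kb, then Spred3 with 14.8, Spred2 with 10.9, Dusp6 with 8.27 and Spry2 with 7.52 CPM per kb. Etv5 at 3.10, Spry1 at 2.76, Spry4 at 2.11 and Etv4 at 1.52 CPM per kb were the lowest. Going down that order, the ranges over libraries did not overlap between Dusp4 and Spred1, between Spred3 and Spred2, or between Spry2 and Etv5. All other neighbours overlapped. Across libraries, Etv5 varied the most, with its highest library 2.86 times its lowest, and Spred2 the least, at 1.29 times.

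**Figure D1:**
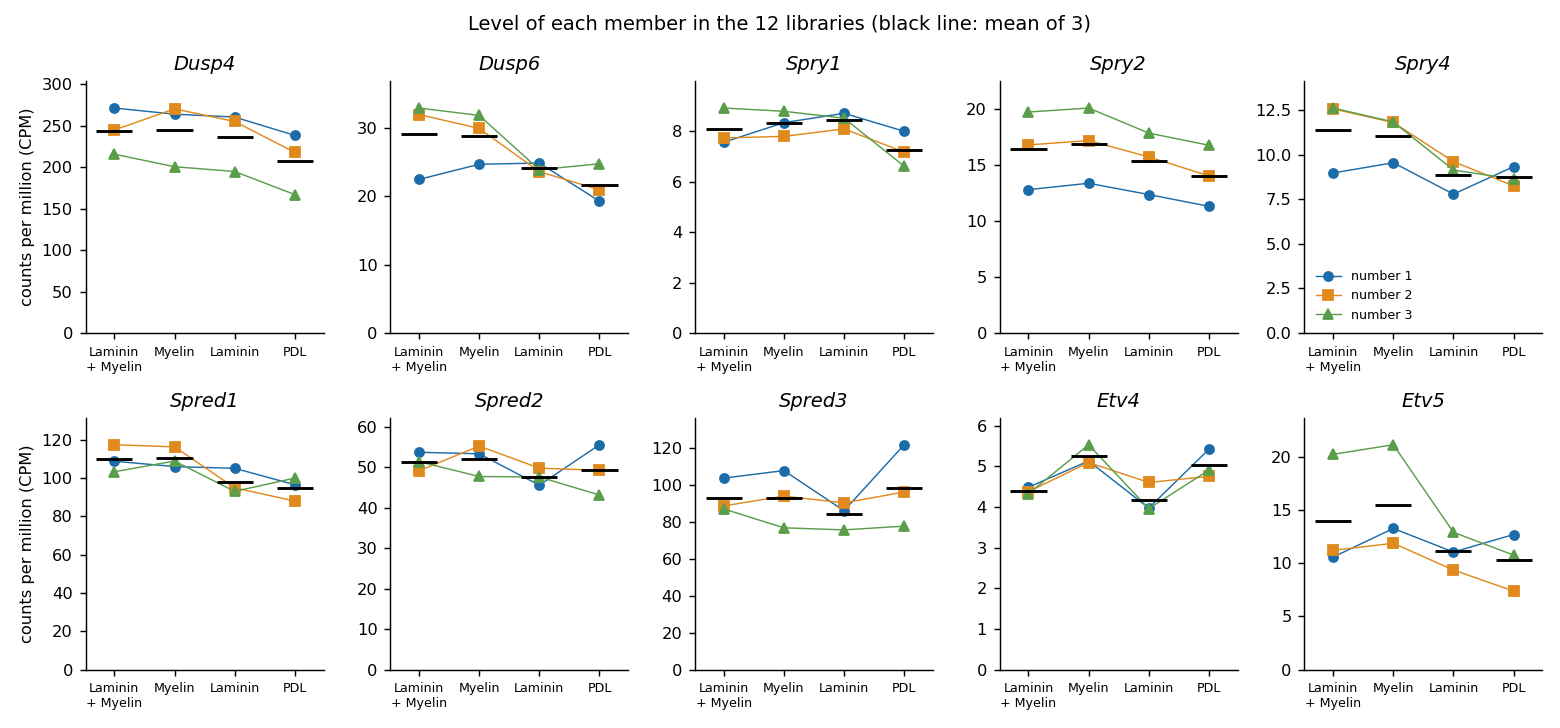
Level of each of the 10 genes in CPM (y axis, linear, starting at 0) in the 12 libraries, by coat (x axis) and library number (colour and symbol, joined by lines), with the mean of 3 libraries as a black bar. The number 3 libraries of Spry2 lie above the number 1 libraries on every coat (16.8 to 20.1 against 11.3 to 13.4 CPM for number 1), and for Dusp4 number 3 is the lowest on every coat.

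Against PDL, the coats with myelin had more RNA of most of these genes, but no gene of the 10 passed the threshold of an adjusted p of 0.05 in the fit of coat alone. The median log2 change of the 10 genes was 0.23 with Myelin against PDL, with 9 of 10 above 0, beside a median of 0.017 and 52.8% above 0 over all genes tested. With Laminin + Myelin against PDL the median was 0.22, with 8 of 10 above 0, and over all genes 0.024 with 53.7% above 0. In edgeR's quasi-likelihood test, 0 of 10 genes were called in either comparison, beside 2.29% of all tested genes with Myelin and 1.25% with Laminin + Myelin. At an unadjusted p under 0.05 there were 3 in each, and DESeq2 called 0 in both. These comparisons share the 3 PDL libraries. Except for Laminin against PDL without the block, the number of all genes at an unadjusted p under 0.05 is not given. Such counts are therefore not read as a result about the 10 genes.

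Libraries of the same number resembled each other on every coat, so the comparison was repeated with the number as a block, which compares coats within a number. Then 3 of the 10 genes were called with Myelin, all higher (Dusp4, Dusp6 and Spry2), where 4.37% of all tested genes were called higher. With Laminin + Myelin 2 were called higher (Dusp4 and Dusp6), where 4.3% of all genes were. These calls rest on few libraries. For Myelin they went to 0 without Myelin replicate 1, 2 or 3 or PDL replicate 2, to 2 without Laminin replicate 3 or PDL replicate 1 or 3, and reached 6 when Laminin replicate 1 was left out. For Laminin + Myelin they went to 0 without Laminin + Myelin replicate 2 or 3 or PDL replicate 2. They went to 1 without Myelin replicate 3 and reached 5 when Laminin replicate 1 was left out. Calls over all genes also moved widely in these fits, from 160 to 5210 for Myelin and from 14 to 5155 for Laminin + Myelin. The swing is therefore not particular to the 10 genes. The fit was then run with each library's outside-gene share beside the block. In either comparison 0 of 10 were called, 0 also at an unadjusted p under 0.05. No gene of the whole table was called there either. The share was 17.4% or more in every PDL library and 13.7% or less elsewhere, so coat and share nearly coincide. Errors widened, for Dusp4 with Myelin from 0.065 to 0.16. This fit therefore cannot decide, and its counts are not read as a result about the 10 genes.

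Counted by same-number pairs, 7 of the 10 genes were higher with Myelin than with PDL in all 3 pairs (Spry1, Spry2, Spry4, Dusp4, Dusp6, Etv5 and Spred1), a pattern that 32.5% of all tested genes had. Spred3 was lower in all 3, as were 28.7% of all genes. With Laminin + Myelin against PDL, 4 genes were higher in all 3 pairs (Spry2, Dusp4, Dusp6 and Spred1), beside 27.2% of all genes, and Etv4 was lower in all 3, beside 25.2%. The 3 Laminin + Myelin libraries of Etv4 lay below all 3 PDL libraries. Without the pairing, the 3 Myelin libraries lay above all 3 PDL libraries for Spry4 and Spred1, beside 12% of all genes. Where groups are said not to overlap and no such share is given, here or elsewhere, the separation is description only.

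**Figure D2:**
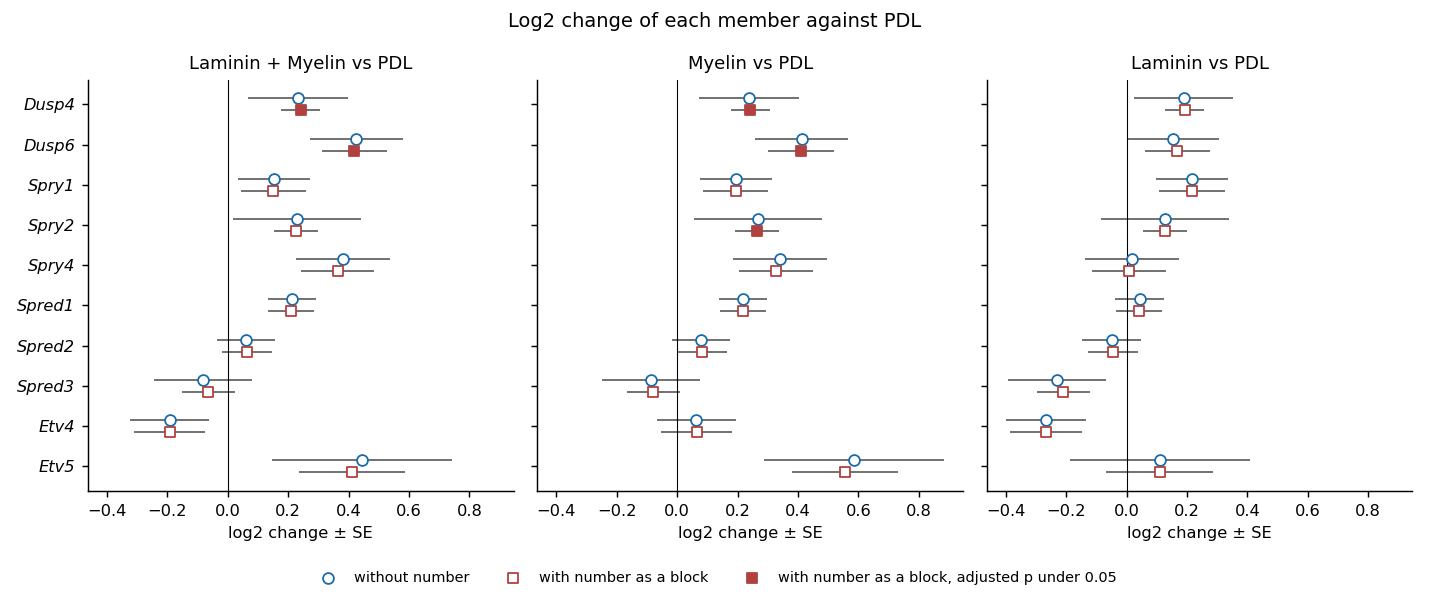
Log2 change against PDL with its standard error (x axis) for each gene, in the fit of coat alone (circles) and with the library number as a block (squares, filled where the adjusted p was under 0.05). The blocked standard errors are narrower, for example 0.073 against 0.21 without the block for Spry2 with Myelin, while the changes themselves hardly move.

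Both phosphatase genes were called for each myelin coat against PDL with the block. Dusp6 encodes a cytoplasmic phosphatase that removes the activating phosphates from ERK (chromosome 10, 99263231 to 99267489, plus strand, GENCODE M21 on GRCm38). It had 22.4, 31.9 and 32.9 CPM in Laminin + Myelin libraries 1 to 3, 24.7, 29.9 and 31.8 CPM in Myelin libraries, 24.8, 23.6 and 23.9 CPM in Laminin libraries and 19.3, 20.9 and 24.7 CPM in PDL libraries. The PDL libraries were low, and the Myelin group overlapped them only through its library 1 and PDL library 3. The log2 change of Dusp6 was 0.41 ± 0.15 (SE) with Myelin against PDL without the block, with an adjusted p of 0.19 in edgeR. With the block it was 0.41 ± 0.11, with an adjusted p of 0.028 (0.00087 to 0.148 as each library was left out). With Laminin + Myelin against PDL it was 0.43 ± 0.15 (adjusted p = 0.19 in edgeR), and 0.42 ± 0.11 with the block (adjusted p = 0.028). With the outside share as a covariate the fitted change of Dusp6 turned negative, to -0.20 ± 0.20 with Myelin and -0.18 ± 0.20 with Laminin + Myelin. Neither passed.

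Dusp4, on chromosome 8 (34807297 to 34819894, plus strand), encodes a nuclear phosphatase of ERK. It had 272, 245 and 216 CPM on Laminin + Myelin, 264, 271 and 201 CPM on Myelin, 261, 255 and 195 CPM on Laminin and 239, 218 and 167 CPM on PDL. Its level was lowest in library 3 of every coat, and within each number the PDL library was the lowest of the 4. Without the block, the log2 change of Dusp4 with Myelin against PDL was 0.24 ± 0.16 (adjusted p = 0.50 in edgeR). With the block the change was 0.24 ± 0.06 (adjusted p = 0.030), and 0.24 ± 0.06 with Laminin + Myelin (adjusted p = 0.031). With Laminin against PDL it was 0.19 ± 0.06 with the block, which did not pass (adjusted p = 0.073). With the outside share as a covariate the Dusp4 change kept its size, 0.23 ± 0.16 with Myelin, and did not pass.

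Sprouty proteins are membrane-associated inhibitors that block the pathway between the receptor and RAF. Spry2 (chromosome 14, 105891947 to 105896819, minus strand) had 12.8, 16.8 and 19.8 CPM on Laminin + Myelin, 13.4, 17.2 and 20.1 CPM on Myelin, 12.4, 15.8 and 17.9 CPM on Laminin and 11.3, 14.1 and 16.8 CPM on PDL. Every coat showed the same order, with library 1 lowest and library 3 highest, so the groups overlapped widely. Within each number, however, the order of coats was also the same, with Myelin highest and PDL lowest. The Myelin against PDL log2 ratio of Spry2 was 0.24 in number 1, 0.29 in number 2 and 0.26 in number 3. The fitted change was 0.27 ± 0.21 without the block (adjusted p = 0.56 in edgeR) and 0.27 ± 0.07 with it (adjusted p = 0.034). With Laminin + Myelin it was 0.23 ± 0.07 with the block and did not pass (adjusted p = 0.061).

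Spry4 had 8.98, 12.6 and 12.6 CPM on Laminin + Myelin, 9.55, 11.8 and 11.8 CPM on Myelin, 7.79, 9.61 and 9.14 CPM on Laminin and 9.33, 8.25 and 8.64 CPM on PDL. Libraries 2 and 3 with myelin were the highest 4 of the 12. In number 1 the log2 ratio of Spry4 was 0.034 with Myelin against PDL and -0.056 with Laminin + Myelin. In number 2 it was 0.52 and 0.61, and in number 3 it was 0.46 and 0.55. The fitted change was 0.34 ± 0.15 with Myelin and 0.38 ± 0.15 with Laminin + Myelin, neither past the threshold (adjusted p = 0.29 and 0.24 in edgeR, 0.088 and 0.065 with the block).

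Spry1 (chromosome 3, 37639947 to 37644598, plus strand) differed least among the Sprouty genes. It had 7.57, 7.74 and 8.92 CPM on Laminin + Myelin, 8.34, 7.80 and 8.79 CPM on Myelin, 8.72, 8.10 and 8.52 CPM on Laminin and 8.001, 7.17 and 6.61 CPM on PDL. The 3 Laminin libraries lay above the 3 PDL libraries, a pattern whose share over all genes is not given. The other groups overlapped PDL. No comparison of Spry1 passed, with a largest log2 change between coats of 0.22 ± 0.12 for Laminin against PDL (adjusted p = 0.37 in edgeR).

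Spred proteins inhibit RAS activation, in part by bringing the RAS inactivator neurofibromin to the membrane. Spred1 (chromosome 2, 117121374 to 117182279, plus strand) had 109, 117 and 103 CPM on Laminin + Myelin, 106, 116 and 109 CPM on Myelin, 105, 94.9 and 93.1 CPM on Laminin and 96.5, 88.0 and 100 CPM on PDL. The 3 Myelin libraries lay above all 3 PDL libraries, as for 12% of all tested genes. The 3 Laminin + Myelin libraries did so too, and the share of all genes with that pattern is not given. Its log2 change was 0.22 ± 0.08 with Myelin and 0.21 ± 0.08 with Laminin + Myelin against PDL, not past the threshold in edgeR with or without the block (adjusted p = 0.18 and 0.21 without, 0.074 and 0.085 with). With the outside share as a covariate both turned negative, to -0.14 ± 0.16 with Myelin and -0.14 ± 0.15 with Laminin + Myelin, and neither passed.

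Spred2 (chromosome 11, 19924375 to 20024026, plus strand) and Spred3 (chromosome 7, 29158829 to 29170411, minus strand) did not follow Spred1. Spred2 averaged 51.4 ± 2.28 CPM on Laminin + Myelin, 52.1 ± 3.91 CPM on Myelin, 47.7 ± 2.10 CPM on Laminin and 49.4 ± 6.22 CPM on PDL (SD, n = 3 each). Spred3 averaged 93.2 ± 9.21 CPM on Laminin + Myelin, 93.0 ± 15.6 CPM on Myelin, 84.1 ± 7.53 CPM on Laminin and 98.6 ± 22.1 CPM on PDL. The log2 change with Myelin against PDL was 0.079 ± 0.10 for Spred2 and -0.086 ± 0.16 for Spred3, and neither passed in edgeR (adjusted p = 0.73 and 0.84).

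The ETS factors Etv4 and Etv5 are induced by fibroblast growth factor signalling and act on its target genes. Etv5 (chromosome 16, 22381309 to 22439719, minus strand) had 10.6, 11.2 and 20.2 CPM on Laminin + Myelin, 13.3, 11.9 and 21.1 CPM on Myelin, 11.05, 9.36 and 12.9 CPM on Laminin and 12.7, 7.38 and 10.8 CPM on PDL. The library 3 values with myelin stood apart from the other 10. The Myelin against PDL log2 ratio of Etv5 was 0.063 in number 1, 0.68 in number 2 and 0.97 in number 3. The fitted change, 0.59 ± 0.30, was the largest of the 10 genes and did not pass (adjusted p = 0.35 in edgeR). With the block it was 0.56 ± 0.17 (adjusted p = 0.053).

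Etv4 (chromosome 11, 101769742 to 101785371, minus strand) sorted by laminin, not by myelin. It had 4.49, 4.38 and 4.33 CPM on Laminin + Myelin, 5.13, 5.10 and 5.53 CPM on Myelin, 3.98, 4.605 and 3.96 CPM on Laminin and 5.42, 4.76 and 4.91 CPM on PDL. All 6 libraries with laminin lay below all 6 without, an arrangement seen in 0.0318% of tested genes (5 genes) and picked out here after the values were seen. The averaged laminin effect, 6 libraries against 6, was a log2 change of -0.26 ± 0.09 for Etv4, with an unadjusted p of 0.017 that did not survive adjustment in edgeR (adjusted p = 0.77, and 0.26 with the block). The 12 libraries held 164 to 229 counts of Etv4, so its counting error is larger than that of the other genes here.

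With Laminin against PDL, a comparison that asks what laminin does without myelin, 0 of the 10 genes were called in edgeR, beside 0% of all tested genes. None of the 10 had an unadjusted p under 0.05, DESeq2 called 0 of them, and over all genes 2735 had an unadjusted p under 0.05. With the block 0 of 10 were called and 8.15% of all genes, with 3 of the 10 at an unadjusted p under 0.05. The median log2 change of the 10 was 0.077, and 3 were higher in all 3 same-number pairs (Spry1, Spry2 and Dusp4), beside 27.6% of all genes, while 2 were lower in all 3 (Etv4 and Spred3), beside 24.6%. The log2 change was 0.16 ± 0.15 for Dusp6 and -0.23 ± 0.16 for Spred3.

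The effect of myelin averaged over wells with and without laminin, 6 libraries against 6, was above 0 for all 10 genes, with a median log2 change of 0.16 beside -0.0026 over all genes, of which 49.3% were above 0. Spred3, at 0.031, went below 0 without replicate 1 of either myelin coat, Laminin replicate 3 or PDL replicate 3. In edgeR without the block 0 of 10 were called, beside 0.0254% of all genes, with 3 at an unadjusted p under 0.05 and 0 called by DESeq2. With the block 4 were called, all higher, where 3.03% of all genes were called higher. Dusp6 rose by 0.33 ± 0.08 on the log2 scale (adjusted p = 0.024), Spry4 by 0.34 ± 0.09 (adjusted p = 0.032), Spred1 by 0.19 ± 0.05 (adjusted p = 0.046) and Spry2 by 0.18 ± 0.05 (adjusted p = 0.0498). Leaving out Laminin + Myelin replicate 2 or 3, Myelin replicate 2 or 3, Laminin replicate 2 or 3 or PDL replicate 2 took the count to 0. It was 1 without Myelin replicate 1, 2 without PDL replicate 1 or 3, and 6 without Laminin replicate 1. Over all genes the blocked calls ran from 96 to 4795 as each library was left out. With the outside share as a covariate the count of the 10 genes was 0. The change was then 0.015 ± 0.11 for Dusp6, 0.0065 ± 0.085 for Spred1, 0.15 ± 0.11 for Spry2 and 0.33 ± 0.17 for Spry4.

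Myelin set against Laminin and Laminin + Myelin against Laminin leave the PDL libraries out of the contrast, and in each 9 of the 10 log2 changes were above 0 without any that passed. With Myelin against Laminin, 8 of 10 were higher in all 3 same-number pairs, beside 13.8% of all genes, and the exceptions were Spry1 and Dusp6. The libraries of Etv4 and Spred1 did not overlap, and the share of all genes with this pattern is not given. Their log2 changes were 0.33 ± 0.13 and 0.18 ± 0.08 (adjusted p = 1.0 for both in edgeR). In edgeR 0 of 10 were called, beside 0.0254% of all genes without the block and 0.114% with it, with 2 and 5 at an unadjusted p under 0.05, and DESeq2 called 0. With Laminin + Myelin against Laminin, 3 of 10 were higher in all 3 pairs (Spry2, Spry4 and Spred1), beside 11.9% of all genes. In edgeR 0 were called, beside 0.0191% of all genes without the block and 0.102% with it, with 1 and 3 at an unadjusted p under 0.05, and DESeq2 called 0. The log2 change of Spry4 was 0.36 ± 0.15 (unadjusted p = 0.038, adjusted p = 1.0 in edgeR). With the block and the outside share, 9 of 10 changes were again above 0 in each comparison, and none passed. Dusp6 was at 0.21 ± 0.08 with Myelin and 0.23 ± 0.08 with Laminin + Myelin against Laminin. Spred1 was at 0.15 ± 0.06 and 0.16 ± 0.06.

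Neither the laminin effect averaged over myelin nor the interaction, the difference between the myelin effect on laminin and that on PDL alone, called any of the 10 genes. In edgeR both were called in 0% of all tested genes, without the block and with it (0%). At an unadjusted p under 0.05 there was 1 of the 10 (Etv4) for laminin and 0 for the interaction, and DESeq2 called 0 in both. The interaction ran from -0.26 for Spry1 to 0.23 for Spred3 on the log2 scale.

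Library number separated some of these genes more than any coat did. Number 1 against number 3, with the coat in the fit and 4 libraries each, called 5 of the 10 genes in edgeR. Dusp4 and Spred3 were higher in number 1, where 20.8% of all genes were called higher, and Spry2, Dusp6 and Etv5 were lower, where 23.1% of all genes were called lower. The median log2 change of the 10 was 0.0086, beside 0.0099 over all genes. Counts and median lie near those of all genes and are not read as a result about the 10 genes. What the number stands for is not given in the labels.

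Spry2 had 11.3 to 13.4 CPM in the number 1 libraries and 16.8 to 20.1 CPM in the number 3 libraries, which did not overlap. The share of all genes without overlap between these numbers is not given, so the separation is description only. Spry2 was lower in number 1 by 0.58 on the log2 scale (SE 0.063, adjusted p = 1.84e-05 in edgeR). Dusp4 had 239 to 272 CPM in number 1 and 167 to 216 CPM in number 3, and was higher by 0.41 ± 0.06 (adjusted p = 9.15e-05). Their direction thus differed although both encode brakes on the same kinase. Spred3 had 86.1 to 122 CPM in number 1 and 75.8 to 87.1 CPM in number 3, which overlapped, and was higher by 0.39 ± 0.08 (adjusted p = 0.0012). Dusp4 and Spred3 were higher on all 4 coats, beside 25.8% of all genes, and Spry2 was lower on all 4, beside 26.3% of all genes. Dusp6 changed by -0.30 ± 0.09 (adjusted p = 0.021) and Etv5 by -0.40 ± 0.15 (adjusted p = 0.046). These last calls depend on single libraries. Without replicate 1 or 3 of Laminin + Myelin or of Myelin, 3 of the 5 calls were left, those of Dusp4, Spred3 and Spry2. Over all genes, 5404 to 8219 were called as each library was left out.

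As a share of the spread of log2 CPM over the 12 libraries, number took 84.0% for Spry2 and 73.3% for Dusp4, against 15.5% and 22.0% for coat. For Spred3 it took 65.7%, and coat 14.8%. Etv4 and Spred1 were the reverse, with coat at 78.6% and 64.9% and number at 0.415% and 1.96%. Coat also took more than number for Dusp6 (52.7% against 27.7%), Spry4 (55.3% against 21.8%) and Spry1 (49.0% against 10.2%). Number 2 against the mean of 1 and 3 called 0 of the 10 in edgeR, beside 2.65% of all genes, with 2 at an unadjusted p under 0.05. Etv5 came closest, at -0.48 ± 0.13 (adjusted p = 0.085), and DESeq2 called it (adjusted p = 0.011).

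**Figure D3:**
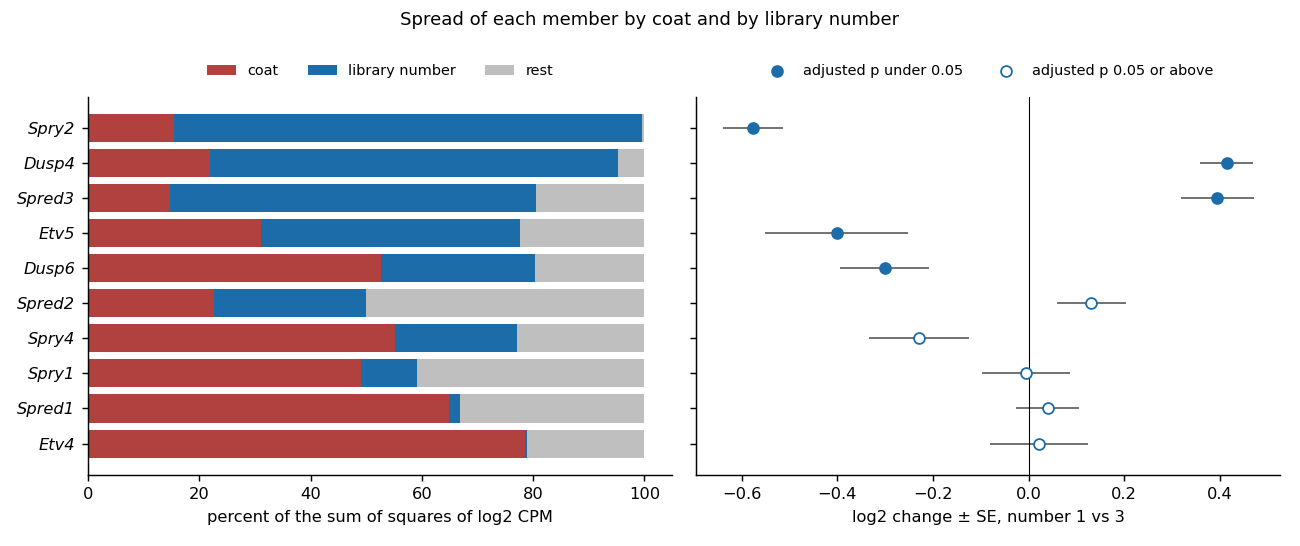
Left, percent of the sum of squares of log2 CPM over 12 libraries that lay between coats, between library numbers and in the rest, for each gene. Right, log2 change of number 1 against number 3 with its standard error, filled where the adjusted p was under 0.05: Spry2, Etv5 and Dusp6 lie left of 0 and Dusp4 and Spred3 right of it.

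Cell type markers moved with the number as well. In number 1 against number 3, 7 of 8 neuron markers were called higher and 7 of 8 progenitor markers lower. Progenitor markers summed to 468 to 573 CPM in number 1 and 755 to 981 CPM in number 3, and neuron markers to 9800 to 10430 CPM in number 1 and 8095 to 8245 CPM in number 3. Of the microglial markers 7 of 8 were called lower, with sums of 10.8 to 17.9 CPM in number 1 and 35.1 to 76.3 CPM in number 3. Their part in the differences of the 10 genes was not tested.

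The rest of the pathway was read from lists of ligands, receptors, cascade members, other brakes and genes that respond to ERK. With Myelin against PDL in edgeR without the block, 1 gene of all these lists was called. This was Vegfa, which encodes a growth factor for blood vessels. It had 28.2, 31.9 and 37.5 CPM on Laminin + Myelin, 29.2, 31.3 and 35.8 CPM on Myelin, 28.8, 39.4 and 38.2 CPM on Laminin and 48.6, 57.6 and 47.6 CPM on PDL. All 9 libraries of the other coats lay below the 3 PDL libraries, a pattern whose share over all genes is not given. Vegfa fell by 0.67 on the log2 scale with Myelin (SE 0.14, adjusted p = 0.040). The call held in 4 of the 12 fits that each left out 1 library, those without replicate 1 or 3 of Laminin + Myelin, replicate 1 of Laminin or replicate 3 of PDL, and was lost without any other library, with adjusted p from 0.012 to 0.22 in edgeR. With the block and the outside share the Vegfa change was -0.18 (adjusted p = 0.77).

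With the block, the genes that respond to ERK held the most calls. Of 26 tested, 7 were called higher with Myelin and 1 lower (Elk1), with a list median of 0.16, where 4.37% of all genes were called higher and 10% lower. Fos, the immediate early gene whose product pairs with JUN in the AP-1 factor, had 13.0, 35.3 and 38.5 CPM on Laminin + Myelin, 17.4, 41.8 and 42.1 CPM on Myelin, 13.0, 21.4 and 26.3 CPM on Laminin and 11.8, 21.4 and 22.6 CPM on PDL. As with Spry4 and Dusp6, its libraries 2 and 3 with myelin were the highest. Fos rose by 0.82 ± 0.13 with Myelin against PDL with the block (adjusted p = 0.0040 in edgeR), and its relatives Fosb and Fosl2 rose by 0.76 ± 0.15 and 0.69 ± 0.15. None of these 3 was called without the block.

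The other lists held few calls with Myelin against PDL, all of them with the block. Among 12 tested fibroblast growth factor genes, Fgf1 rose by 1.89 ± 0.39 and Fgf17 fell by 1.32 on the log2 scale. Both were rare. Fgf1 had 24, 37 and 45 counts in the Myelin libraries and 11, 3 and 14 counts in the PDL libraries, and Fgf17 had 16, 6 and 8 counts in the Myelin libraries and 27, 28 and 18 counts in the PDL libraries. Among 18 other ligand genes Bdnf rose by 0.35 ± 0.11, and Vegfa and Nrg2 fell by 0.68 and 0.41. Of 19 receptor genes, Fgfrl1, a fibroblast growth factor receptor without a kinase, was called, at 0.90 ± 0.16. Of 24 cascade genes 3 were called higher and 1 lower, among them the adaptor gene Grb2 at 0.27 ± 0.07, the MEK gene Map2k1 at 0.30 ± 0.09 and the RAF gene Braf at -0.38 ± 0.09. Of 18 other brakes, Pea15a, whose product holds ERK in the cytoplasm, was called at 0.38 ± 0.11, and Rasa2, which encodes a RAS inactivator, at -0.25 ± 0.07. With the outside share as a covariate no gene of the whole table was called, and the fitted changes of Grb2, Map2k1, Braf, Pea15a, Nrg2 and Fgf17 changed sign.

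**Figure D4:**
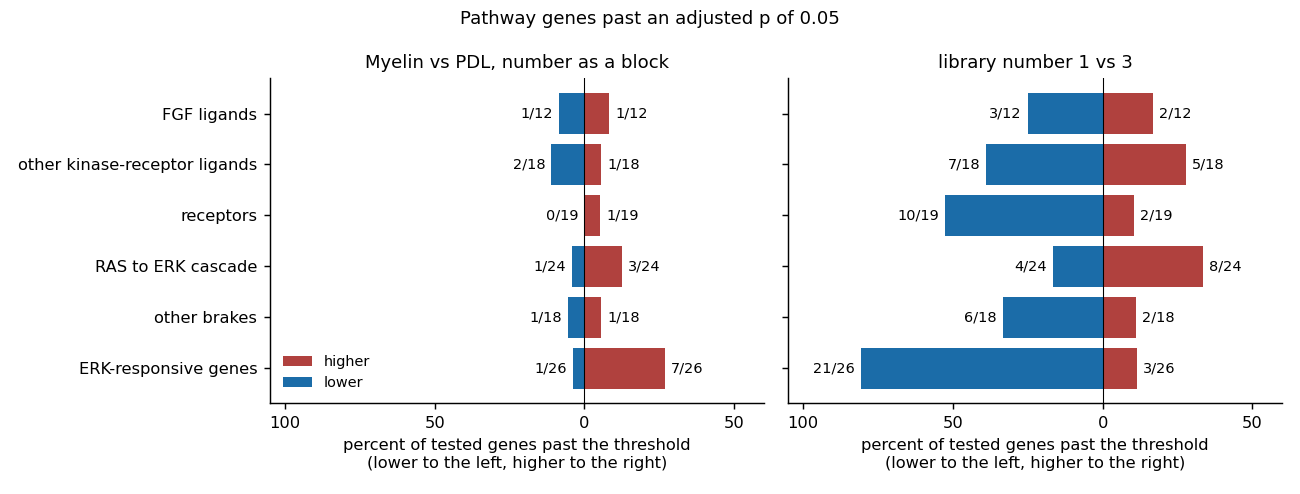
Percent of tested genes of each list past an adjusted p of 0.05 (x axis, lower to the left and higher to the right) with Myelin against PDL with the library number as a block, and for library number 1 against 3. Beside each bar stands the number called of the number tested: 7 of 26 ERK-responsive genes were higher with Myelin, and 21 of 26 were lower in number 1.

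Between library numbers, 21 of the 26 ERK-responsive genes were called lower in number 1 than in number 3, where 23.1% of all genes were, and 3 were called higher (Epha4, Elk1 and Myc), where 20.8% of all genes were. The list median was -1.11 on the log2 scale, beside 0.0099 over all genes. Fosb changed by -3.29 ± 0.15, with 0.417 to 0.839 CPM in number 1 and 4.38 to 7.296 CPM in number 3. Epha2 changed by -2.17 ± 0.22, and Egr4, with 1 to 4 counts in number 1 libraries and 17 to 20 in number 3 libraries, by -2.81 ± 0.41. Of the 10 feedback genes, Spry2, Dusp6 and Etv5 shared this direction and Dusp4 and Spred3 went against it.

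The other lists were mixed between numbers, and their counts are read against the same 23.1% of all genes called lower and 20.8% called higher. Of 19 receptor genes 10 were called lower in number 1 and 2 higher, led by Erbb3 at -2.02 ± 0.30, Fgfr4 at -2.01 ± 0.28 and Kdr at -1.45 ± 0.13. Other brakes had 6 lower and 2 higher of 18, led by the ERK phosphatase gene Dusp5 at -1.48 ± 0.21, the ETS repressor gene Erf at -1.20 ± 0.12 and Dusp9 at -0.86 ± 0.29. Cascade genes had 4 lower and 8 higher of 24, with Shc1 at -0.66 ± 0.10, Frs3 at 0.53 ± 0.08 and Ksr2 at 0.42 ± 0.14. Other ligands had 7 lower and 5 higher of 18, led by Gdnf at -2.74 ± 0.32, Hgf at -1.49 ± 0.53 and Pdgfb at -1.40 ± 0.11. Fibroblast growth factor genes had 3 lower and 2 higher of 12, with Fgf15 at -2.06 ± 0.15 and Fgf1 at -0.88 ± 0.33. Fgf4 had 0 to 1 counts in each number 1 library and 33 to 61 counts in each number 3 library.

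The genes whose log2 CPM over the 12 libraries was most like the mean of the 10, each scaled to unit spread, were found among 10989 genes with a mean of at least 5 CPM. On the values as they are, these were Sel1l3, Pcdhgc3, Gpr56, Kcnh1 and B4galt5, with Pearson r from 0.89 to 0.93. After the mean of each library number was subtracted, they were Peg10, Sox1, Wipf1, Plxnd1 and Rnf216, with r from 0.97 to 0.98. Sox1 encodes a transcription factor of neural progenitors. Of the feedback genes themselves, Etv5 (0.96), Spry4 (0.95) and Spry2 (0.87) lay closest to that mean after subtraction and Spred3 (0.30) farthest, with Etv4 under the minimum of 5 CPM and not compared. These are descriptions over 12 libraries that share coats and numbers, from which the mean was itself made.

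In the authors' deposited table, the adjusted p with Myelin against PDL was 0.31 for Dusp6, 0.45 for Etv5, 0.47 for Spred1 and 0.62 for Spry4, and none of the 10 genes was under 0.05 in any of its 6 comparisons of coats. Over all its genes, 452 were under 0.05 for Myelin, 352 for Laminin + Myelin and 76 for Laminin against PDL. There were 11 for Laminin against Myelin, 9 for Laminin + Myelin against Laminin and 0 for Laminin + Myelin against Myelin. That table gave log2 fold changes with Myelin against PDL from -0.081 for Spred3 to 0.59 for Etv5.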

How the data were processed

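RNA was sequenced from 12 cultures on 4 coats. The authors deposited raw counts per gene, and also their own log2 fold changes and adjusted p-values for pairs of coats. Per the submitters' processing notes, CASAVA 1.8.2 and edgeR were used with the builds mm10 and GRCm38; no aligner, counter, annotation or strand setting is named there (not given in the sources used here), so overlapping or antisense reads may share a gene's count. Of 21033 entries, 3 named no gene and were left out. They held reads outside genes (8.46% to 19.4% of all counts), reads aligned to several places (11.5% to 13.6%) and ambiguous reads (0.579% to 0.717%). The table's 12 further columns, of values the authors normalized, were left aside.

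The 10 genes and all lists were chosen with earlier results of these data known. Genes were kept by filterByExpr, scaled by TMM and tested on all 12 libraries in one fit with edgeR 4.0.16 (quasi-likelihood test, robust dispersions, two-sided) in R 4.3.3 with limma 3.58.1. A call is a Benjamini-Hochberg adjusted p under 0.05 over all genes tested. CPM values use TMM-scaled library sizes. Errors of log2 changes are SE. Alternatives were RLE size factors, no low-count filter, DESeq2 1.42.0, the library number as a block, the block with the outside share, and leaving out each library. The fit of coat alone was also run on simulated data. These held no effect of library number and larger changes than those of the 10 genes between coats. That run therefore says nothing about calls made with the block. Replicates differed by more than counting noise (chi-square per degree of freedom 17.5 to 69.3). Depth gives small counting error for all but the rare genes. The text names all 10 genes, and from each list up to 3 called genes with the largest change.

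The labels number the libraries 1 to 3 on each coat. Deviations of log2 CPM from the coat means correlated at 0.218 to 0.830 in all 18 same-number pairs and at -0.770 to 0.243 in the 36 other pairs, so the numbers were taken to pair the libraries. This pairing was read from the data, since the labels give no shared litter or day. Principal component 1, with 51.2% of the variance, had an R squared of 0.983 on library number. Adding the block took the biological coefficient of variation to 0.0901, against 0.205 without. Coordinates are those of GENCODE M21, and exon lengths for levels per kilobase come from it.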

Additional observations from a re-analysis of the deposited data

How the results depend on the processing

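Genes called in edgeR without and with the replicate block numbered 360 and 2268 for Myelin against PDL, 196 and 2133 for Laminin + Myelin against PDL, 0 and 1282 for Laminin against PDL, 3 and 16 for Laminin + Myelin against Laminin, 4 and 18 for Myelin against Laminin, and 4 and 1358 for the averaged myelin effect. Of the 10 feedback genes, the block called 3, 2 and 4 for Myelin, Laminin + Myelin and the averaged effect, and it changed no other call among them between coats. With the outside share beside the block, calls numbered 0 for both myelin coats against PDL, 42 and 50 for Laminin + Myelin and Myelin against Laminin and 7 for the averaged effect. Signs turned there with Myelin against PDL for Grb2 (-0.034), Braf (0.26), Pea15a (-0.20), Spred1 (-0.14), Spred3 (0.27), Map2k1 (-0.17), Dusp6 (-0.20), Nrg2 (0.070) and Fgf17 (0.51). With Laminin against PDL they turned for Spred1 (-0.30), Spred2 (0.20), Spred3 (0.11), Dusp6 (-0.41) and Spry4 (-0.0078). With Laminin + Myelin against PDL they turned for Spred1 (-0.14), Spred3 (0.27) and Dusp6 (-0.18). In the interaction they turned for Spred3 (-0.11), Dusp6 (0.435), Spred1 (0.30), Spred2 (-0.22) and Etv4 (-0.17). In the averaged laminin effect they turned for Dusp6 (-0.19), Spred1 (-0.145), Spred2 (0.085) and Spred3 (0.057). The cause was not tested, but PDL libraries alone hold the high outside shares, so coat and share overlap.

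DESeq2 called 1048, 945 and 485 genes for Myelin, Laminin + Myelin and Laminin against PDL, 7 and 9 against Laminin, 583 and 2 for the averaged myelin and laminin effects, 3 for the interaction, and 631 for number 2, with 1 feedback gene there. Without the low-count filter Laminin + Myelin against PDL called 127.

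As each library was left out, genes called without the block ran from 2 to 1044 for Myelin and 0 to 876 for Laminin + Myelin against PDL, 0 to 4 and 1 to 4 against Laminin, 4 to 673 for the averaged myelin effect (0 to 1 feedback genes), and 169 to 847 for number 2 (0 to 1 feedback genes). For number 1 against 3, 3 to 6 feedback genes were called. With the block they ran from 160 to 5210 (0 to 6 feedback genes) for Myelin, 14 to 5155 (0 to 5) for Laminin + Myelin and 0 to 2481 for Laminin against PDL, 6 to 186 (0 to 1) for Laminin + Myelin and 9 to 336 (0 to 1) for Myelin against Laminin, 96 to 4795 (0 to 6) and 0 to 15 for the averaged effects and 0 to 83 for the interaction. Small changes crossed 0: Spred2 and Spred3 ran from -0.0084 to 0.18 and -0.23 to 0.10 with Myelin and from -0.027 to 0.16 and -0.23 to 0.10 with Laminin + Myelin. With Laminin against PDL, Spry2 ran from -0.0050 to 0.27, Spry4 from -0.044 to 0.10, Etv5 from -0.078 to 0.29, Spred1 from -0.013 to 0.084 and Spred2 from -0.14 to 0.047, and Spred3 ran from -0.041 to 0.12 in the averaged myelin effect.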
